A study of Mus musculus with 6 samples.

Results

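The genes described are Cd44 and 9 genes that share its ligand or its link to the cell skeleton, taken by symbol from the 54532 gene rows of a liver count table. They are the hyaluronan receptors Cd44, Hmmr, Lyve1 and Stab2, the hyaluronan-degrading enzymes Hyal1, Hyal2 and Cemip2, and the linkers ezrin (Ezr), radixin (Rdx) and moesin (Msn), known together as ERM proteins. All 10 symbols matched 1 row each, and all 10 passed the filter on low counts, among 14758 genes tested. Whole livers of 6 mice were profiled by RNA sequencing, 3 knockouts and 3 littermate controls. Both groups were on the C57BL/6J/Rj background and homozygous for a floxed Cd44 allele (Cd44flox/flox). The knockouts also carried 1 Cre allele at the lysozyme locus (LysMcre/+), which is active in myeloid cells, while the controls had no Cre (LysM+/+). Every mouse drank a Lieber-DeCarli diet with 6% ethanol for 10 days, was given ethanol by gavage at 5 g/kg on day 11 and was killed 9 hours afterwards. No group without ethanol and none with Cre alone was analysed here, so Cd44 loss cannot be told apart from effects of Cre or of the altered lysozyme allele. Age and sex are not given in the sources used here.

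Hyaluronan is a long sugar polymer of the extracellular matrix that binds CD44 on leukocytes and other cells. In the liver most of it is cleared from the blood by sinusoidal endothelial cells, which take it up through stabilin-2 (Stab2) and also carry LYVE1, while RHAMM, the product of Hmmr, binds hyaluronan and also serves at the mitotic spindle. Inside the cell, ezrin, radixin and moesin tie the tails of CD44 and other membrane proteins to actin. Moesin is the main ERM protein of leukocytes and endothelium, radixin that of hepatocytes, and ezrin that of many epithelia.

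Library totals ran from 18428224 to 24042917 counts, so that 3 counts, the limit used for a gene not detected, stood for a CPM (library-scaled count) of 0.119 to 0.148. CPM values were scaled by TMM, edgeR's trimmed mean that offsets differences in RNA make-up, and log2 values are knockout against control. Over all genes tested, 3684 (25.0%) passed at an adjusted p under 0.05, 13.1% lower and 11.9% higher in the knockouts, a count that was 2275 without control 2 and 2296 without knockout 1. The groups did not overlap for 43.8% of genes, 22.5% with all knockouts lower and 21.4% with all knockouts higher. Hepatocyte markers were present at high levels in every library, with 10 genes, of which Alb took most, summing to 75050 to 86610 CPM in controls and 98310 to 137200 CPM in knockouts, and 4 of the 10 passed as higher, 2 without control 1. Of 14 genes shared by myeloid cells 11 were lower and 0 higher, with a summed level of 623 to 759 CPM in controls and 246 to 435 CPM in knockouts. Of 10 Kupffer cell markers 8 were lower and 0 higher (834 to 901 against 272 to 550.0 CPM), a count that was 4 without control 1, control 2 or knockout 1. Of 15 sinusoidal endothelial markers (513 to 552 against 443 to 594 CPM), 0 passed by edgeR, DESeq2 or limma-voom, 1 had an unadjusted p under 0.05, 2 passed without knockout 2 and 6 passed with scaling by library totals. RNA came from whole liver, so fewer cells of a type and less RNA per cell cannot be told apart in any value below.

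Of the 10 genes, 3 were lower in the knockouts by edgeR's quasi-likelihood test (Cd44, Msn and Ezr), 0 were higher by edgeR, DESeq2 or limma-voom, and 7 did not pass. The 3 of 10 that passed are near the 25.0% of all genes, so the count itself does not set these genes apart. At an unadjusted p under 0.05 there were 6 lower genes and 1 higher gene. The share of all genes at that threshold was not counted, so nothing is read from this number. Without knockout 2 the number of the 10 passing was 5. The median log2 change of the 10 was −0.53, beside −0.01 over all genes tested. The groups did not overlap for 5 of the 10, with all knockouts lower for Cd44, Lyve1, Ezr and Msn and all knockouts higher for Rdx. This is near the 43.8% of all genes without overlap (22.5% lower and 21.4% higher), so this count does not set the 10 apart either. The 3 changes that passed are spread over receptors and linkers, and no hyaluronan-degrading enzyme passed.

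**Figure D1:**
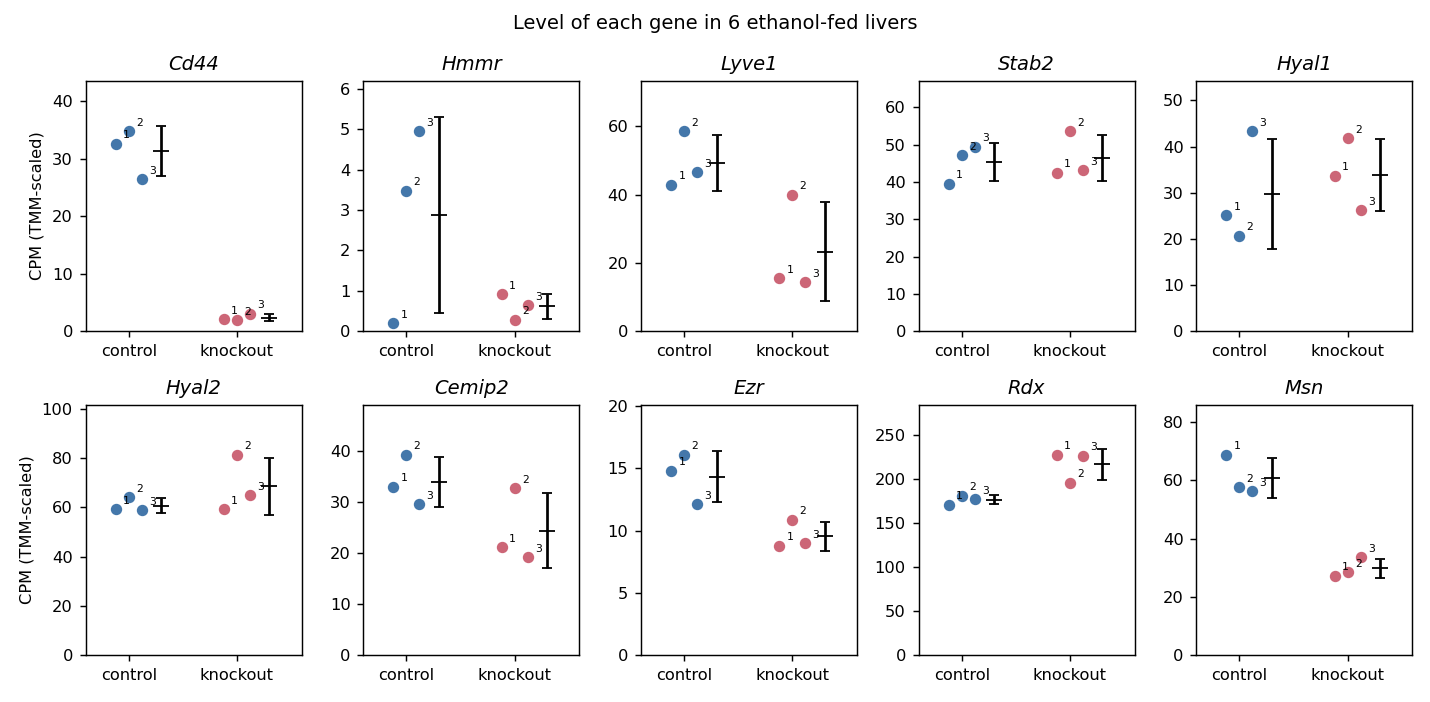
Level of each of the 10 genes in TMM-scaled CPM (vertical axes, each from 0) in 3 control and 3 knockout livers (points, numbered by mouse), with the mean and SD beside them. The groups do not overlap for Cd44, Lyve1, Ezr, Msn and Rdx. Lyve1 is higher in knockout 2 than in the other knockouts, and Hmmr is near 0 in control 1.

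**Figure D2:**
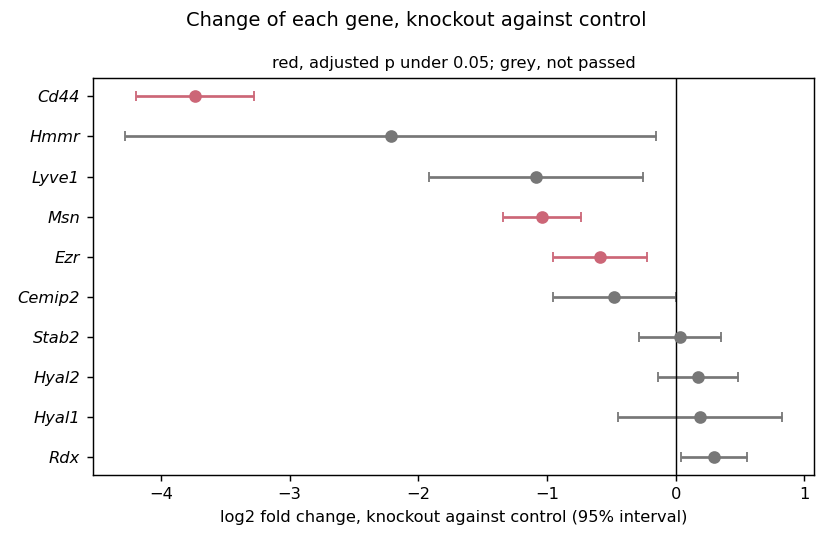
Log2 fold change of each gene, knockout against control (points), with its 95% interval (bars), from edgeR. The intervals of Cd44, Msn and Ezr (red) belong to the genes that passed after adjustment over all genes, and the widest interval is that of Hmmr.

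Cd44 (ENSMUSG00000005087, chromosome 2, 102811141 to 102901665, minus strand, GRCm38) encodes the targeted receptor and was checked first. Its level in CPM was 32.6, 34.8 and 26.4 in control livers and 2.11, 1.92 and 3.01 in knockout livers, from 607 to 821 reads in a control library and 40 to 61 reads in a knockout library. Every knockout was far below every control, the direction the labels give, and no knockout reached 0. The level was 13.3-fold lower (log2 −3.73, SE 0.20, 95% interval −4.19 to −3.28, adjusted p = 9.07e-05). The call was kept in all 15 alternative fits of this gene, each read at an adjusted p under 0.05. The counts cover the whole gene and not the floxed exons alone.

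Because myeloid markers were themselves lower in the knockouts, Cd44 was also set against their sum in the same liver. The log2 ratio of Cd44 to the 14 summed myeloid markers was −4.54, −4.19 and −4.56 in controls and −7.32, −7.00 and −7.18 in knockouts. The group means were −4.43 ± 0.21 and −7.17 ± 0.16 (SD, n = 3 each), so Cd44 was 6.66-fold lower relative to these markers, without overlap. An exact two-sided permutation test gave p = 0.1, the smallest that 3 livers against 3 allow. This ratio holds for the 14-gene sum, whose members did not move alike: Lcp1, for one, stood at 98.8 CPM on average in both groups. Monocytes and neutrophils, in which this Cre is also active, have lists of their own, to be read beside the median log2 of −1.39 for the 14 genes. Of 9 monocyte markers 7 were lower and 0 higher, with a median log2 of −2.01. Chil3 had a log2 change of −4.39 (9.93 ± 11.7 against 0.472 ± 0.379 CPM, adjusted p = 0.0152), larger in size than that of Cd44. The summed monocyte level, 1283 to 1977 CPM in controls and 1880 to 2436 CPM in knockouts, was mostly Fn1, which hepatocytes also express. Of 9 neutrophil markers 6 were tested, 4 were lower and 0 higher, 2 without control 1 or knockout 1, with a median log2 of −1.94. They summed to 15.4 to 29.98 CPM in controls and 3.16 to 8.28 CPM in knockouts. The part of these cells in the Cd44 level was not tested. T and NK cells also carry Cd44. Of 12 T and NK cell markers 6 were tested and 1 was lower, and their summed level was 9.33 to 12.9 CPM in controls and 4.62 to 8.82 CPM in knockouts. Their part in the remaining Cd44 reads was not tested.

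The protein-coding genes with a mean of at least 1 CPM whose centred log2 profile over the 6 livers lay nearest to that of Cd44 were Hid1, Creb5 and Phlda3. Their root mean square differences from it were 0.18, 0.18 and 0.28 log2 units. Hid1 stood at 26.1 ± 5.55 CPM in controls and 2.30 ± 0.44 CPM in knockouts, and Phlda3, a p53-regulated gene, at 28.5 ± 1.52 and 3.06 ± 1.04 CPM. Creb5, a transcription factor of the CREB family, stood at 4.25 ± 0.60 and 0.29 ± 0.17 CPM. All 3 were lower in the knockouts by an amount close to that of Cd44, which is what the measure selects for.

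Lyve1 (ENSMUSG00000030787, chromosome 7, 110850607 to 110863239, minus strand) encodes the LINK-domain receptor of sinusoidal and lymphatic endothelium. It stood at 42.9, 58.7 and 46.6 CPM in controls and at 15.5, 40.0 and 14.3 CPM in knockouts. All knockouts were lower than all controls, but knockout 2 lay close to the lowest control, far from knockouts 1 and 3. The mean was 2.12-fold lower (log2 −1.08, SE 0.36, 95% interval −1.92 to −0.25), and this did not pass (adjusted p = 0.0609). It passed with DESeq2 (adjusted p = 0.00811), limma-voom (0.0292), scaling by library totals (0.0176), no filter (0.00302) and without knockout 2 (log2 −1.72, adjusted p = 0.00109), and its range over 15 alternative fits was 0.00109 to 0.1745. Lyve1 is therefore given as lower in every knockout liver with a size that 1 library decides. Of 6 lymphatic endothelial markers 4 were tested, and 1 was lower and 1 higher, a count of 2 that was 1 without control 1, control 2 or control 3. Mmrn1 fell from 1.44 ± 0.25 to 0.37 ± 0.13 CPM (adjusted p = 0.00803), and Prox1 was at 119 ± 6.25 CPM in controls and rose to 224 ± 81.0 CPM (adjusted p = 0.0216). Hepatocytes are another source of Prox1. The 6 markers summed to 189 to 221 CPM in controls and 256 to 429 CPM in knockouts. Nearly all of that sum was Prox1, Reln (61.0 against 79.5 CPM) and Flt4 (23.4 against 19.98 CPM). Reln is also listed as a stellate cell marker and Flt4 as a sinusoidal endothelial one, so the sum does not follow lymphatic endothelium alone. The part of the lymphatic markers in the Lyve1 level was not tested.

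Stab2 (ENSMUSG00000035459, chromosome 10, 86841198 to 87008025, minus strand), the main scavenger receptor for hyaluronan on the same endothelium, did not follow Lyve1. It stood at 39.5, 47.1 and 49.4 CPM in controls and at 42.5, 53.6 and 43.2 CPM in knockouts, and the groups overlapped. The log2 difference was 0.03 (95% interval −0.28 to 0.35, adjusted p = 0.887), and its sign turned with library totals (−0.23), without control 1 (−0.04) and without knockout 2 (−0.08). The interval leaves room for a change of either sign up to about 0.35 log2 units, and not for one as large as the estimate for Lyve1. Stab2 shares 141 exon bases with an antisense gene, and the strand setting is not given in the sources used here.

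Relative to 15 summed sinusoidal endothelial markers, the log2 ratio of Lyve1 was −3.58, −3.18 and −3.57 in controls and −4.86, −3.89 and −4.95 in knockouts. It differed by −1.13 between the group means, a 2.18-fold lower level, with no overlap (exact two-sided permutation p = 0.1, the smallest possible). For Stab2 the same ratio was −3.70, −3.50 and −3.48 in controls and −3.41, −3.47 and −3.36 in knockouts. It was 0.15 higher in the knockouts, also without overlap (exact two-sided permutation p = 0.1). Set directly against Stab2 in the same liver, a ratio chosen after the values were seen and not tested, Lyve1 stood at log2 0.12, 0.32 and −0.09 in controls and −1.46, −0.42 and −1.59 in knockouts. In CPM the endothelial receptors thus stood within 0.32 log2 units of each other in the controls and further apart in the knockouts, least so in knockout 2. That liver had the highest summed endothelial markers (594 CPM) and the lowest summed myeloid and Kupffer markers (246 and 272 CPM) of all 6. The part of these in its Lyve1 level was not tested.

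**Figure D3:**
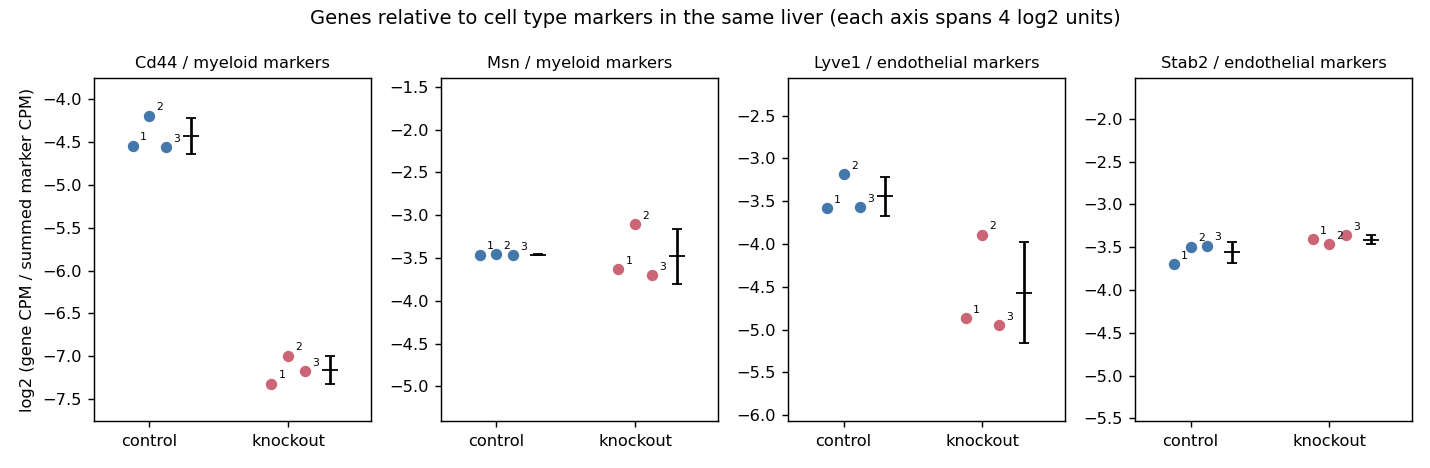
Log2 ratio of gene CPM to the summed CPM of cell type markers in the same liver (vertical axes, 4 log2 units each) for 3 control and 3 knockout livers, with mean and SD. Cd44 per myeloid marker level is −4.43 in controls and −7.17 in knockouts on average, Msn per myeloid marker level is −3.46 and −3.48, and Lyve1 but not Stab2 drops relative to endothelial markers.

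The genes nearest to Lyve1 in profile were Fabp4 (26.4 ± 4.50 against 11.2 ± 4.58 CPM), Lama5 (21.3 ± 5.14 against 10.5 ± 4.66 CPM) and Crispld2 (4.89 ± 1.49 against 2.35 ± 1.17 CPM), at 0.16, 0.18 and 0.18 log2 units. Fabp4 encodes a fatty acid-binding protein of adipocytes, endothelium and macrophages, and Lama5 a laminin chain of basement membranes. Each was also higher in knockout 2 than in the other knockouts: Fabp4 stood at 8.68, 16.5 and 8.38 CPM and Lama5 at 7.72, 15.9 and 7.89 CPM in knockouts 1 to 3. Sharing this order with Lyve1 is what the measure selects for. Nearest to Stab2 were Nicn1, Wbp1l and Pop5, at 0.03 to 0.04 log2 units, of which 0 passed.

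Hmmr (ENSMUSG00000020330, chromosome 11, 40701395 to 40733422, minus strand) was the least abundant of the 10. It had 5, 72 and 114 reads in the controls and 19, 6 and 13 in the knockouts, or 0.199, 3.48 and 4.96 CPM against 0.911, 0.289 and 0.641 CPM. Controls 2 and 3 were above all knockouts and control 1 was below all of them, so the groups overlapped. The mean was 4.63-fold lower in the knockouts (log2 −2.21, SE 0.90, 95% interval −4.28 to −0.15), which did not pass (adjusted p = 0.109). It passed with DESeq2 (0.0242), with no filter (0.0141) and without control 1 (log2 −2.76, adjusted p = 0.00758). It was smaller and did not pass with limma-voom (log2 −1.34, adjusted p = 0.491) or without control 3 (log2 −1.53, adjusted p = 0.319), and its adjusted p ran from 0.00758 to 0.491 over 14 alternative fits.

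The liver that was low in Hmmr was low in other genes of cell division. The 16 listed mitotic genes, among them the proliferation marker Mki67 and the mitotic kinase Cdk1, summed to 20.3, 69.5 and 105 CPM in controls and to 21.4, 7.89 and 18.04 CPM in knockouts. Of the 15 that were tested, 8 were lower and 0 higher, with a median log2 of −2.23. Cdk1 fell (CPM of 2.14, 6.24 and 8.13 in controls, 1.44, 0.77 and 1.18 in knockouts, adjusted p = 0.0127) and kept its call in all 15 alternative fits at the 0.05 threshold. Top2a, Ccna2 and Cenpe fell too, with adjusted p = 0.0245, 0.0366 and 0.0243. They did not pass without control 2 (0.059, 0.0886 and 0.071), control 3 (0.0871, 0.13 and 0.0846) or knockout 1 (0.0651, 0.0794 and 0.0691). Ccna2 and Cenpe did not pass without knockout 2 (0.0839 and 0.0627) or with limma-voom (0.103 and 0.0786), nor did Ccna2 without knockout 3 (0.0628). The count of 8 was 13 without control 1, 1 without control 2 or control 3, 2 without knockout 1, without knockout 2 or with limma-voom, 4 without knockout 3 and 12 with DESeq2.

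Relative to the summed mitotic genes, Hmmr had a log2 ratio of −6.68, −4.32 and −4.41 in controls and −4.56, −4.77 and −4.82 in knockouts. The difference of means was 0.42 (exact two-sided permutation p = 1) and turned to −0.35 without control 1, whose ratio rests on 5 reads. In the other 5 livers the ratio lay between −4.82 and −4.32, with the 3 knockouts below controls 2 and 3. The genes nearest to it in profile were Cdca3, Ckap2l and Cenpf, at 0.31, 0.35 and 0.40 log2 units. All 3 encode proteins of cell division, and each was lower in control 1 (0.99, 0.36 and 0.40 CPM) than in control 2 (7.93, 2.61 and 3.39 CPM) or control 3 (9.26, 4.17 and 4.09 CPM). That likeness to Hmmr in control 1 is again what the measure selects for.

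**Figure D4:**
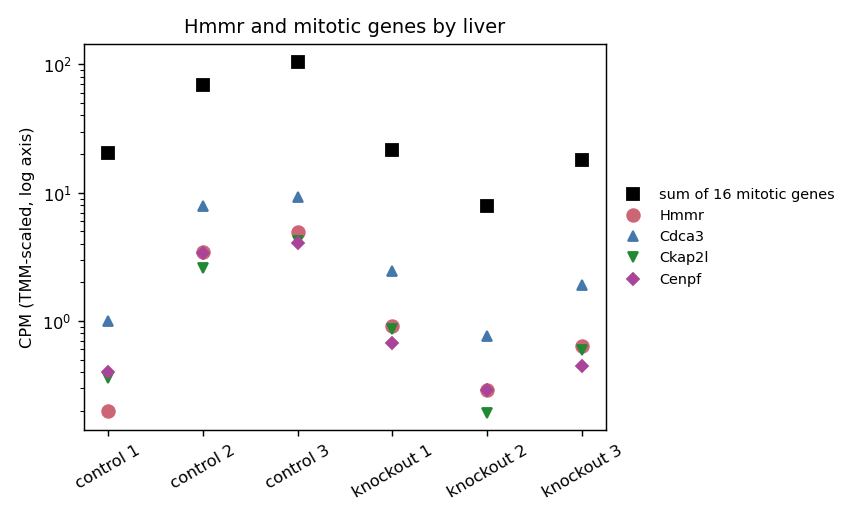
TMM-scaled CPM (log axis) of Hmmr, of the 3 genes nearest to it in profile and of the sum of 16 mitotic genes in each of the 6 livers. The sum is 20.3 CPM in control 1 against 69.5 and 105 CPM in the other controls, and Hmmr has its lowest level, 0.199 CPM, in control 1.

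The promoter of Hmmr is shown because the gene moved with the mitotic genes, many of whose promoters carry CCAAT boxes, the binding element of the factor NF-Y. The sequence is the stretch before the RefSeq start (GRCm38.p6, chr11:40733438-40733687, minus strand), 5′ to 3′, with matches to CCAAT on either strand and to the GC box GGGCGG in capitals.
Hmmr: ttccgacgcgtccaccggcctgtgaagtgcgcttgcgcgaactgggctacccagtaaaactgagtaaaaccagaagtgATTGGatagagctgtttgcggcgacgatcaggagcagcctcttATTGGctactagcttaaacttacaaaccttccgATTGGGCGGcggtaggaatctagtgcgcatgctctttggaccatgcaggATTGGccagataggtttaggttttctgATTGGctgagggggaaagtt
It holds 5 CCAAT matches, all on the opposite strand as ATTGG, of which 1 overlaps the single GC box. Of 32851 RefSeq promoter windows of 250 bases, 33.8% held at least 1 CCAAT match on either strand and 0.21% held at least 5. Among the 16 mitotic genes 13 had a window in the table, 11 of these held a CCAAT match and 7 held 2 or more. A gene with several windows was counted by the one with most matches, so these counts are not like the shares of single windows. The cell cycle element CHR, searched as TTTGAA, was not matched in this window and was held by 16% of all windows.

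Msn (ENSMUSG00000031207, chromosome X, 96096042 to 96168552, plus strand), the ERM linker of leukocytes and endothelium, stood at 68.8, 57.7 and 56.2 CPM in controls and at 27.2, 28.5 and 33.5 CPM in knockouts. The groups lay far apart, with less spread within each than between them. It was 2.05-fold lower (log2 −1.04, SE 0.13, 95% interval −1.34 to −0.73, adjusted p = 0.00151), and the call was kept in all 15 alternative fits at the 0.05 threshold.

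The fall of Msn was close in size to that of the summed myeloid markers, a sum that includes the unchanged Lcp1 (98.8 CPM on average in both groups). It was smaller than the median log2 of the 14 markers (−1.04 against −1.39). The log2 ratio of Msn to that sum, chosen after the values were seen and not tested, was −3.46, −3.46 and −3.47 in controls. In knockouts it was −3.63, −3.11 and −3.70, and the means differ by −0.02. Relative to the endothelial markers the ratio was −2.90, −3.20 and −3.30 in controls and −4.05, −4.38 and −3.73 in knockouts. It was thus lower in every knockout relative to endothelial markers and on both sides of the controls relative to myeloid markers. The genes nearest to Msn in profile were Col16a1 (6.68 ± 0.71 against 3.09 ± 0.36 CPM), Limk1 (8.80 ± 1.39 against 4.06 ± 0.50 CPM) and Slc43a2 (24.3 ± 1.93 against 12.04 ± 1.46 CPM), within 0.07 log2 units. Limk1 encodes a kinase that controls actin through cofilin, Col16a1 a collagen chain and Slc43a2 an amino acid transporter.

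Ezr (ENSMUSG00000052397, chromosome 17, 6738041 to 6782784, minus strand), the epithelial ERM linker, stood at 14.8, 16.1 and 12.1 CPM in controls and at 8.77, 10.9 and 8.97 CPM in knockouts, without overlap. It was 1.503-fold lower (log2 −0.59, SE 0.16, 95% interval −0.95 to −0.23, adjusted p = 0.0285). The call was lost without control 1 (adjusted p = 0.0792), control 2 (0.111), knockout 1 (0.101) or knockout 3 (0.0705), with a log2 change between −0.55 and −0.48, and its range over 15 alternative fits was 0.00621 to 0.111. Cholangiocytes are rich in ezrin, and their markers summed to 57.1 to 60.4 CPM in controls and 50.3 to 53.1 CPM in knockouts. Of the 5 tested, 0 passed by edgeR, DESeq2 or limma-voom, 1 had an unadjusted p under 0.05 and 1 passed without knockout 2. Most of that sum was Spp1 (42.3 ± 2.02 against 41.2 ± 5.44 CPM), while the median log2 of the 5 was −0.59. Krt19 stood at 1.43 ± 0.10 CPM in controls and 0.84 ± 0.09 CPM in knockouts (adjusted p = 0.0834), and Sox9 at 10.9 ± 3.02 and 5.87 ± 4.17 CPM (adjusted p = 0.183). The part of these cells in the change of Ezr was not tested.

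Rdx (ENSMUSG00000032050, chromosome 9, 52047173 to 52088735, plus strand), the linker of hepatocytes, where it holds the bile transporter Abcc2 at the canalicular membrane, went the other way. It stood at 171, 180.5 and 177 CPM in controls and at 227, 196 and 226 CPM in knockouts, with all knockouts higher. The log2 difference of 0.30 (95% interval 0.04 to 0.55) did not pass (adjusted p = 0.0884), nor in any of 15 alternative fits at the 0.05 threshold. It shrank to 0.05 with library totals, a scaling that moved the median of all genes from −0.01 to −0.26. Abcc2 itself stood at 648 ± 225 CPM in controls and 727 ± 68.0 CPM in knockouts (adjusted p = 0.665).

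These shifts changed the make-up of the ERM transcripts, counted as CPM per kilobase of exons. The share of Msn in the 3 was 20.9%, 17.2% and 17.5% in controls and 7.68%, 9.01% and 9.34% in knockouts. Its mean share was 18.5% ± 2.01 against 8.68% ± 0.88 (SD, n = 3 each), without overlap (exact two-sided permutation p = 0.1, the smallest possible). Rdx took 73.1% ± 2.38 in controls and 85.9% ± 1.59 in knockouts, and Ezr 8.38% ± 1.01 and 5.397% ± 1.05. Radixin transcripts were the majority in every liver, and more so in each knockout.

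**Figure D5:**
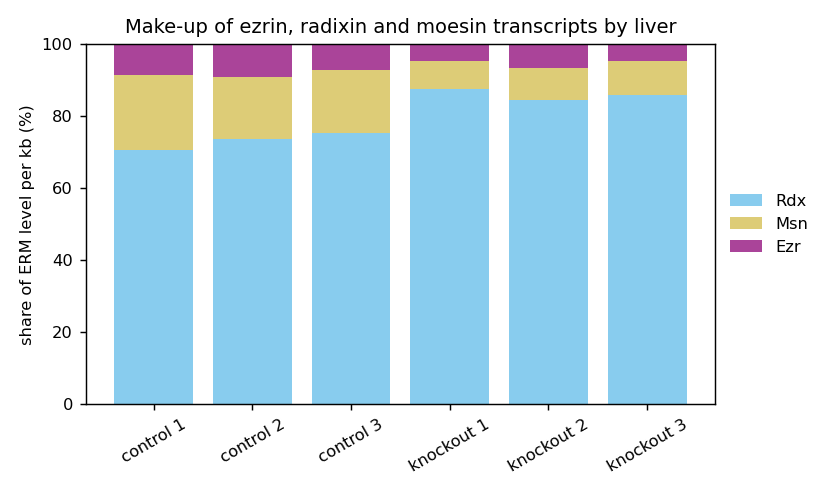
Share (%) of radixin, moesin and ezrin in the summed ERM level per kilobase of exons, as 1 stacked bar per liver for 3 controls and 3 knockouts. The moesin share is 17.2% to 20.9% in controls and 7.68% to 9.34% in knockouts.

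The promoters of Msn and Ezr are shown because these are the ERM genes that fell. They are the stretches before the RefSeq start and before any annotated exon (GRCm38.p6), chrX:96095795-96096041 on the plus strand for Msn and chr17:6782785-6783030 on the minus strand for Ezr, 5′ to 3′. Capitals mark the GC box GGGCGG and the AP-1 element TGANTCA on either strand.
Msn: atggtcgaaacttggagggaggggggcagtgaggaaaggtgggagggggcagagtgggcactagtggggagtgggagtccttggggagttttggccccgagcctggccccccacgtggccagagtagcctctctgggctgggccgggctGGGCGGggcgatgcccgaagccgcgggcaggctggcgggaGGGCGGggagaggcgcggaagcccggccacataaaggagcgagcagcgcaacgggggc
Ezr: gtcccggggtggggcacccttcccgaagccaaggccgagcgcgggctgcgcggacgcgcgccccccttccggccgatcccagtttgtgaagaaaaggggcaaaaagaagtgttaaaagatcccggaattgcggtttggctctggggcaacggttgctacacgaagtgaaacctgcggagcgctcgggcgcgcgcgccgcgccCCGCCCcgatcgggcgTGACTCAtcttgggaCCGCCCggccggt
Both are rich in G and C (71.3% and 67.9%, against a median of 52.4% over all windows) and each holds 2 GC boxes, as at least 2 do in 16.7% of windows. Ezr also holds 1 AP-1 match, which 6.7% of windows do, and Msn holds none. No match was found in any of the 3 promoters to the PU.1 element, searched as GAGGAAGT, or to the CArG box, which 2.4% and 1.5% of windows held.

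None of the 3 hyaluronan-degrading enzymes passed by edgeR, although Cemip2 had an unadjusted p of 0.0497, and 0 passed with DESeq2 or limma-voom. Hyal2 (ENSMUSG00000010047, chromosome 9, 107567945 to 107572779, plus strand), a membrane-anchored hyaluronidase that makes the first cuts in the polymer, stood at 59.1, 64.1 and 58.9 CPM in controls and at 59.2, 81.4 and 65.0 CPM in knockouts. The groups overlapped, and the log2 difference of 0.17 (95% interval −0.14 to 0.49, adjusted p = 0.388) turned to −0.09 with library totals. Hyal1 (ENSMUSG00000010051, chromosome 9, 107576927 to 107581710, plus strand), the lysosomal enzyme that cuts the fragments further, stood at 25.2, 20.6 and 43.4 CPM in controls and at 33.7, 41.9 and 26.2 CPM in knockouts. The controls alone spanned most of the range, and the log2 difference of 0.19 (95% interval −0.45 to 0.82, adjusted p = 0.661) turned to −0.07 with library totals. Hyal1 shares 1920 of its 3777 exon bases with Naa80 on the same strand, so its level is uncertain.

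Cemip2 (ENSMUSG00000024754, chromosome 19, 21778342 to 21858360, plus strand) encodes a membrane protein described as a cell-surface hyaluronidase. It stood at 32.9, 39.2 and 29.5 CPM in controls and at 21.1, 32.7 and 19.1 CPM in knockouts. Knockout 2 lay among the controls and knockouts 1 and 3 below them, the same order of knockouts as for Lyve1. The log2 difference of −0.48 (95% interval −0.96 to −0.00) did not pass (adjusted p = 0.131). It passed without knockout 2 (log2 −0.75, adjusted p = 0.0135) and with library totals (−0.75, adjusted p = 0.0216).

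Compared per kilobase of exons, the controls ordered the genes from Rdx (37.9 ± 1.08 CPM per kilobase) over Hyal2 (18.4 ± 0.90), Lyve1 (16.9 ± 2.83), Msn (9.63 ± 1.09), Hyal1 (7.87 ± 3.18), Stab2 (5.18 ± 0.59), Cd44 (4.61 ± 0.64), Ezr (4.36 ± 0.62) and Cemip2 (3.97 ± 0.58) to Hmmr (0.53 ± 0.45). Rdx was clear of Hyal2, Lyve1 of Msn and Cemip2 of Hmmr in every control, while the other neighbours in this order overlapped. In the knockouts Cd44 (0.35 ± 0.09 CPM per kilobase) had dropped by 2 places, below every liver's Cemip2 value and above Hmmr. Lyve1 (7.98 ± 4.97) and Msn (4.70 ± 0.53) dropped by 1 and 2 places in this order, and Rdx (46.6 ± 3.85) and Hyal2 (20.8 ± 3.49) stayed first and second.

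Other genes of hyaluronan and of ERM function were read from 8 lists with 94 genes, the mitotic genes among them. Of 76 that were tested, 22 were lower and 6 higher, 36.8% beside 25.0% of all genes, and 11 of the 28 kept their call in every alternative fit at the 0.05 threshold in which they were tested. The count of 28 was 14 without control 2 and 16 without control 3 or knockout 1. Of 10 genes for hyaluronan synthesis and its sugar precursors, 7 were tested, 2 were lower and 1 was higher (median log2 −0.03), 1 in all without control 3 or knockout 3. The synthases had few reads and did not pass the filter: Has2 had 0 reads in all 6 livers, Has1 had 0 to 3 reads per liver and Has3 had 3 to 12. Pgm3, an enzyme of UDP-GlcNAc synthesis, fell from 35.3 ± 9.51 to 13.6 ± 2.88 CPM (adjusted p = 0.0044). Gfpt2, an enzyme of the first step of that route, fell from 2.40 ± 0.22 to 0.82 ± 0.43 CPM (adjusted p = 0.0199). The Gfpt2 call was lost without control 2, control 3, knockout 1 or knockout 3 (0.0577, 0.0666, 0.0623 and 0.0539). Gfpt1, the more abundant enzyme of that step, stood at 88.6 ± 32.2 and 46.6 ± 19.4 CPM and did not pass (adjusted p = 0.0773). Gfpt1 was named after its values were seen. Ugp2, which makes UDP-glucose, rose from 411 ± 121 to 869 ± 312 CPM (adjusted p = 0.0336). That call was lost without control 1, control 3, knockout 1 or knockout 3 (0.0889, 0.0926, 0.0941 and 0.09001) and with library totals (0.078).

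Of 16 proteins that bind hyaluronan in matrix or plasma, 10 were tested, 2 were lower and 2 higher (median log2 −0.20), 1 in all without control 2 and 2 without knockout 1. Tnfaip6, which transfers heavy chains of inter-alpha-inhibitor to hyaluronan, fell from 1.16 ± 0.11 to 0.18 ± 0.16 CPM (adjusted p = 0.0175, and 0.0574 without control 2). Vcan, the proteoglycan versican, fell from 1.55 ± 0.47 to 0.28 ± 0.24 CPM (adjusted p = 0.0301). The Vcan call was lost without any one of control 1, control 2, control 3, knockout 1 and knockout 3 (0.0874, 0.0792, 0.0538, 0.0588 and 0.0519). Both had 0 reads in knockout 2. Itih1, one of those heavy chains and a hepatocyte product, rose from 546 ± 21.8 to 843 ± 88.1 CPM (adjusted p = 0.0113). Habp2, a plasma serine protease, rose from 164 ± 16.1 to 229 ± 5.99 CPM (adjusted p = 0.0188). Its call was lost without control 1, control 2 or knockout 1 (0.0514, 0.0647 and 0.0636) and with library totals (0.182).

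Of 4 further receptors of hyaluronan or its fragments, the toll-like receptors fell and the endothelial stabilin-1 and layilin did not pass (median log2 −0.67). Tlr2 fell from 13.3 ± 1.37 to 6.37 ± 0.94 CPM (adjusted p = 0.00345) and Tlr4 from 5.33 ± 0.77 to 2.56 ± 0.45 CPM (adjusted p = 0.012). Stab1 stood at 62.7 ± 2.65 and 51.8 ± 10.9 CPM (adjusted p = 0.222) and Layn at 1.12 ± 0.28 and 1.19 ± 0.22 CPM (adjusted p = 0.856), both named after their values were seen. Of 8 further enzymes of hyaluronan breakdown, 4 were tested and 0 passed by edgeR, DESeq2 or limma-voom (median log2 −0.11). At an unadjusted p under 0.05 there were 2, among them the hyaluronidase-family gene Hyal3 (0.79 ± 0.57 against 0.26 ± 0.14 CPM, unadjusted p = 0.04, adjusted p = 0.113).

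Of 16 ligands, partners and processing factors of CD44, 15 were tested, 3 were lower and 3 higher (median log2 −0.17), 2 in all without control 1 and 3 without control 2, knockout 1 or knockout 2. Srgn, the leukocyte proteoglycan serglycin, a ligand of CD44, fell from 22.6 ± 3.51 to 11.3 ± 1.83 CPM (adjusted p = 0.0046). Adam10, a protease that sheds the CD44 ectodomain, fell from 55.1 ± 3.78 to 38.4 ± 1.29 CPM (adjusted p = 0.00981). Met, a receptor kinase for which CD44 variants act as co-receptor, rose from 77.0 ± 5.42 to 106 ± 11.2 CPM (adjusted p = 0.0252). Esrp2, an epithelial splicing factor that acts on Cd44 variant exons, rose from 65.5 ± 5.47 to 95.3 ± 15.4 CPM (adjusted p = 0.0246). The Met call was lost without control 1, control 3, knockout 1 or knockout 2 (0.0704, 0.0681, 0.0756 and 0.0628), and that of Esrp2 without control 1, control 2 or knockout 2 (0.0619, 0.0851 and 0.0522). With library totals neither passed (0.229 and 0.114). The ligand osteopontin, Spp1, stood at 42.3 ± 2.02 and 41.2 ± 5.44 CPM (adjusted p = 0.857), named after its value was seen.

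Of 14 regulators of ERM proteins, 13 were tested, 2 were lower and 0 higher (median log2 −0.16), and 6 passed with library totals. Map4k4, a kinase that can phosphorylate ERM proteins, fell from 71.1 ± 4.04 to 34.3 ± 13.1 CPM (adjusted p = 0.0153). Its call was lost without control 2 or knockout 1 (0.0551 and 0.0597). Pip5k1a, which makes the lipid PIP2 that opens ERM proteins, fell from 23.2 ± 0.94 to 16.2 ± 1.22 CPM (adjusted p = 0.012). Of 10 membrane proteins that bind them, 8 were tested, 3 were lower and 0 higher (median log2 −0.84; 5 passed with library totals). The endothelial ligand Icam1 fell from 58.4 ± 9.10 to 27.2 ± 1.85 CPM (adjusted p = 0.00149). The selectin ligand Selplg fell from 7.38 ± 1.80 to 3.06 ± 0.89 CPM (adjusted p = 0.0129). Both calls were kept in all 15 alternative fits at the 0.05 threshold. Selplg, like Msn and Srgn, is expressed in leukocytes, and the markers shared by myeloid cells were lower in the same livers. The part of these cells in the changes of Selplg, Msn and Srgn was not tested.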

How the data were processed

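The authors deposited a table of raw counts, in which each mouse has a column and each Ensembl gene a row. The build GRCm38.p6 and the tools featureCounts 1.5.0-p3, HISAT2 2.0.5 and StringTie 1.3.3b are named, per the submitters' processing notes, without role or order. The strand setting and the treatment of reads shared by overlapping genes are not given in the sources used here. Per the labels' protocols, poly-A RNA was selected from total liver RNA. Symbols and exon lengths came from GENCODE M21 (54495 of 54532 rows matched), and promoters from RefSeq, whose table held 8 of the 10 genes.

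Genes were filtered with filterByExpr, TMM-scaled and tested with edgeR 4.0.16 (quasi-likelihood, no covariates) in R 4.3.3, with Benjamini-Hochberg adjustment over all genes tested. Adjusted p-values come from edgeR where no tool is given. The SE is the log2 change divided by the square root of F, and intervals use the moderated degrees of freedom. Limits of 3 counts cover counting error only. P-values set the difference between the groups against the spread between these mice. The genes and lists were chosen with earlier results of these data known. Named were the 10 genes and, from each pathway list, up to 4 that passed by smallest p, or 2 where none passed. A few of these are not reported here. On simulated counts (5 draws, 200 of 14513 to 14530 genes changed) the test recovered 10.8%, 48.8% and 91.2% of genes changed 1.5-fold, 2-fold and 4-fold, and 7.2% of calls were false. Far fewer genes were changed there than the 3684 that passed in these data, so the rates need not hold for this comparison. No 2 libraries of a group agreed within sampling noise (the smallest chi-square was 26.9 per degree of freedom). Alternatives were DESeq2 1.42.0, limma-voom (limma 3.58.1), RLE size factors, library totals, no filter, at least 50 counts in 3 libraries, protein-coding genes only, leaving out the 20 most abundant genes, the mouse number as a block, thresholds of 0.01 and 0.1, and leaving out each liver. All but the 2 thresholds are refits, 15 in number, read at 0.05. Figures used matplotlib 3.10.9.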

Additional observations from a re-analysis of the deposited data

How the results depend on the processing

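At the 0.05 threshold Cd44 and Msn passed, and Rdx did not, in all 15 alternative fits of each. Rdx is among the genes that passed at an adjusted p under 0.1. The number of the 10 genes passing, 3, was 5 with DESeq2, library totals, no filter, an adjusted p under 0.1 and the mouse number as a block, and ran from 2 to 5 over the fits leaving out 1 liver each. The number of all genes passing, 3684, was 1515 at an adjusted p under 0.01 and ran from 2275 to 3413 leaving out 1 liver each. Library totals moved the split of calls to 904 higher and 3697 lower, against 1751 and 1933. Of the pathway genes 28 passed, 6 at an adjusted p under 0.01 and 14 to 27 leaving out 1 liver each. The sign turned for Stab2 (−0.226), Hyal1 (−0.066) and Hyal2 (−0.088) with library totals, and for Stab2 without control 1 (−0.042) or knockout 2 (−0.077), within a range of −0.077 to 0.123 leaving out 1 liver each. The cause was not tested. The ratio of Hmmr to mitotic genes, 0.42, ran from −0.35 to 0.83 leaving out 1 liver each. The mouse numbers gave correlations of deviations of −0.027, 0.044 and −0.018 for the same-numbered livers over all genes. Over the most variable genes they were −0.191, 0.005 and 0.002. With so few livers this check cannot exclude that same-numbered livers were matched in some way. With the replicate block 3086 genes passed, and Lyve1 (adjusted p = 0.0161) and Cemip2 (0.0376) passed too. Depth limits Hmmr, with 5 to 114 reads per liver.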
